A study of Coturnix japonica with 54 samples.

Results

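The late part of an autumn-like decline in day length was examined in the pituitary of male Japanese quail, Coturnix japonica, by comparing 6 birds killed at 8L, the shortest day, with 6 birds killed at 12La. The 8L birds had 8 h of light a day and had passed through 10 h of light on the way down, while the 12La birds had 12 h of light and were killed 2 steps earlier. Birds were chosen by their treatment label, which put 12 of the 54 birds of the series in this comparison, and 6 birds at 10La, the step in between, are given beside it. All birds began under 16 h of light, each step took 2 h off the day and lasted 2 weeks, and every bird is a separate animal with its own library. Later sampling, a longer time in the experiment and older age come with the shorter day and cannot be told apart from it. The labels name no genotype, agent or surgery, and they give no ages.

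The anterior pituitary makes the hormones that drive reproduction, parental care, thyroid function and the stress response. Quail breed under long days. Gonadotrophs make follicle-stimulating and luteinising hormone, each a shared alpha subunit joined to its own beta subunit, and thyrotrophs join the same alpha subunit to another beta subunit. Lactotrophs make prolactin, corticotrophs make the precursor of adrenocorticotropin, and the hormone cells sit among folliculostellate cells, vessels and a collagen-containing stroma. In birds, a falling day length ends with regressed gonads and low gonadotropin secretion. In a whole gland, fewer cells of a type and less RNA per cell cannot be told apart.

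Full-length cDNA of polyadenylated RNA was read on Oxford Nanopore flow cells, and levels below are in CPM, a gene's largest transcript count scaled by the library's sum of such counts. The libraries were shallow. Their totals ran from 15584 to 24821 at 8L and from 6867 to 77709 at 12La, with means of 20122 ± 3982 and of 34672 ± 25144 (SD, n = 6 each; exact permutation test, two-sided p = 0.182). Genes with a count numbered 1541 to 5717 per bird at 8L and 819 to 9753 at 12La (exact permutation p = 0.411). A pair of libraries stood apart from the rest, 8L replicate 6 with 1541 genes and 12La replicate 6 with 819 genes. In them LOC107307159, a protein-coding locus without a symbol, took 49.7% of the counts at 8L and 47.7% at 12La, and POMC was at 3166 CPM and 2184 CPM. They are also the birds with the highest numbers in their groups, and 10La replicate 6, with 1078 genes and 54.4% of counts in the same locus, is like them. The label of the tissue was met by its hormone genes, with PRL, CGA and POMC at a count in all 12 birds.

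**Figure D1:**
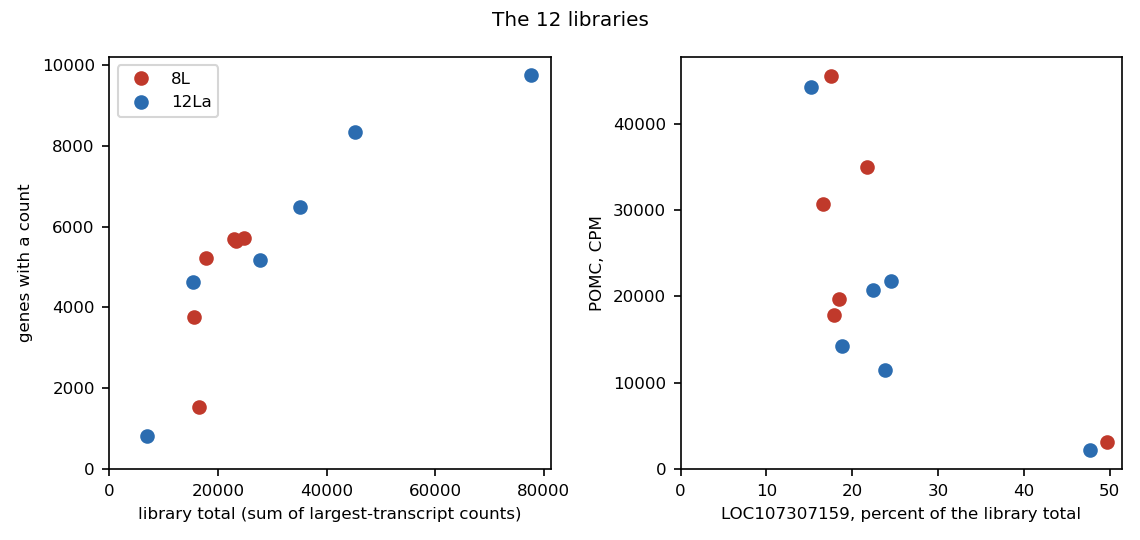
The 12 libraries, with 8L in red and 12La in blue, 1 point per bird. Left, genes with a count against the library total. Right, the level of POMC in CPM against the percent of the library total in LOC107307159, where 1 bird of each group lies apart at 49.7% (8L) and 47.7% (12La).

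Among the hormone genes, prolactin stood lower at 8L with the smallest p, FSHB had 0 counts at 8L, and the glycoprotein alpha subunit, TSHB and the adrenocorticotropin precursor had positive log2 fold changes with intervals that span 0. PRL encodes prolactin, which in birds is tied to incubation, brood care and the end of the breeding season. It lay between 2983 and 10636 CPM at 8L (median 7109) and between 3932 and 46262 CPM at 12La (median 17511). Every 8L bird was below 5 of the 12La birds, and the overlap came from 12La replicate 6, the library of low detection. The log2 fold change was -1.76 ± 0.44 (SE; 95% interval -2.64 to -0.89), with an adjusted p of 0.0845 in edgeR's quasi-likelihood test over 1460 genes and 0.0217 in an exact permutation test of PRL by itself (two-sided), so that PRL did not pass the threshold of 0.05. Without the 2 libraries of low detection all 5 birds at 8L were below all 5 birds at 12La, with means of 7146 ± 2742 and of 24119 ± 13892 CPM (SD), and the log2 fold change was -1.91 ± 0.49 (SE; edgeR adjusted p = 0.0792), which did not pass. Of 2060 genes tested without all libraries under 2000 genes, 9 (0.437%) were below in this way and 8 (0.388%) above. Such an order was thus about as frequent in both directions, and it left out the 1 bird that overlapped. PRL passed at -1.94 ± 0.42 (SE; adjusted p = 0.00815) when all 9 libraries of the series with under 2000 genes were left out of the fit, 7 of them from other photoperiods. PRL was lower at 8L under all 29 other settings tried (-2.06 to -1.35) and passed in 7 of them. The smallest change, -1.35, came with the log2 library total as a term (edgeR adjusted p = 0.399). Without 12La replicate 4, the library with the largest total at 12La, it was -1.39 (edgeR adjusted p = 0.545). Some of the passes left out 12La replicate 6, the bird that overlapped, or 8L replicate 4, the bird with the highest PRL at 8L.

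The intermediate birds at 10La had PRL between 2065 and 16230 CPM, with a median of 9901. Along the decline mean PRL was 37311 CPM under 16La, 46471 CPM in 14La birds and 20754 CPM in 12La birds, and it reached 9403 CPM at 10La and 6452 CPM at 8L. PRL had a log2 fold change of -1.15 ± 0.43 at 10La against 12La (edgeR adjusted p = 0.915, unadjusted p = 0.00871) and -0.62 ± 0.43 at 8L against 10La (adjusted p = 1.00). These comparisons share the 12La or the 8L birds with the one above, and their values are given side by side for that reason. Neither step passed after adjustment, so the order of the neighbouring means from 12La to 8L is not settled by these birds.

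FSHB encodes the beta subunit specific to follicle-stimulating hormone. It had 0 counts in all 6 birds at 8L and 21 counts in 3 of 6 birds at 12La, where replicates 2, 3 and 4 held 3, 4 and 14 counts. The 8L birds thus lay at the same value as the other 3 birds at 12La. A count of 0 over the group total of 120730 at 8L allows up to 24.8 CPM (3 counts), and 12La over its group total stood at 100.9 CPM. With that pooled 12La level taken as exact, FSHB was at least 4.06-fold lower at 8L. The bounds were 2.16 to 4.89 when a 12La bird was left out and 3.23 when an 8L bird was, and they do not cover the spread between birds. FSHB did not pass (edgeR unadjusted p = 0.00981, adjusted p = 0.999; exact permutation p = 0.182), and passed when 12La replicate 5 was left out (adjusted p = 0.0185). That bird had 0 counts, like every bird at 8L, so the pass came from leaving out a bird that went the other way. It was the 1 pass of FSHB among 28 other settings. At 10La there were 5 counts in 3 of 6 birds.

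CGA, the alpha subunit shared by follicle-stimulating, luteinising and thyroid-stimulating hormone, stood at 2323 to 4235 CPM at 8L (median 2663) and at 1447 to 3212 CPM at 12La (median 1955). The groups overlapped, and 8L replicate 5 was the 1 bird above all at 12La. The log2 fold change was 0.31 ± 0.41 (SE; edgeR adjusted p = 0.999). Its approximate 95% interval of -0.49 to 1.11 leaves room for a 2-fold higher level at 8L but not for a 2-fold lower one. At 10La CGA lay between 844 and 4151 CPM, against 10135 to 26167 CPM at 14La, so each of the 18 birds at 12La, 10La and 8L was below each of the 6 at 14La. The comparison was chosen as what followed this earlier fall of the gonadotropin genes, so that order is not a separate finding. LOC107319226, a protein-coding locus without a symbol that was chosen after its values were seen, had 7 counts in 4 birds at 8L and 12 counts in 5 birds at 12La. Its level was 0 to 168.9 CPM at 8L (median 51.95) and 0 to 145.6 CPM at 12La (median 46.4), with a log2 fold change of -0.06 ± 0.87 (SE; edgeR adjusted p = 0.999). With so few counts a further change of that locus within the 95% interval of -1.8 to 1.7 was not detectable at this depth. At 16La and 14La it lay between 558 and 1871 CPM, which no bird at 12La or 8L reached.

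TSHB, whose product is the beta chain of thyroid-stimulating hormone, lay between 0 and 282 CPM at 8L (median 180.7) and between 0 and 260.7 CPM at 12La (median 134.6). The groups overlapped nearly in full, each with 1 bird at 0, and the log2 fold change was 0.26 ± 0.55 (SE; edgeR adjusted p = 0.999). POMC, the precursor of adrenocorticotropin, ran from 3166 to 45566 CPM at 8L (median 25184) and from 2184 to 44229 CPM at 12La (median 17526). Its lowest value in each group belonged to the library of low detection, and the log2 fold change was 0.32 ± 0.54 (SE; edgeR adjusted p = 0.999). Of the 8 gene symbols listed for pituitary hormones, 5 had counts and all 5 were tested. LHB and the growth hormone gene were not analysed here.

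**Figure D2:**
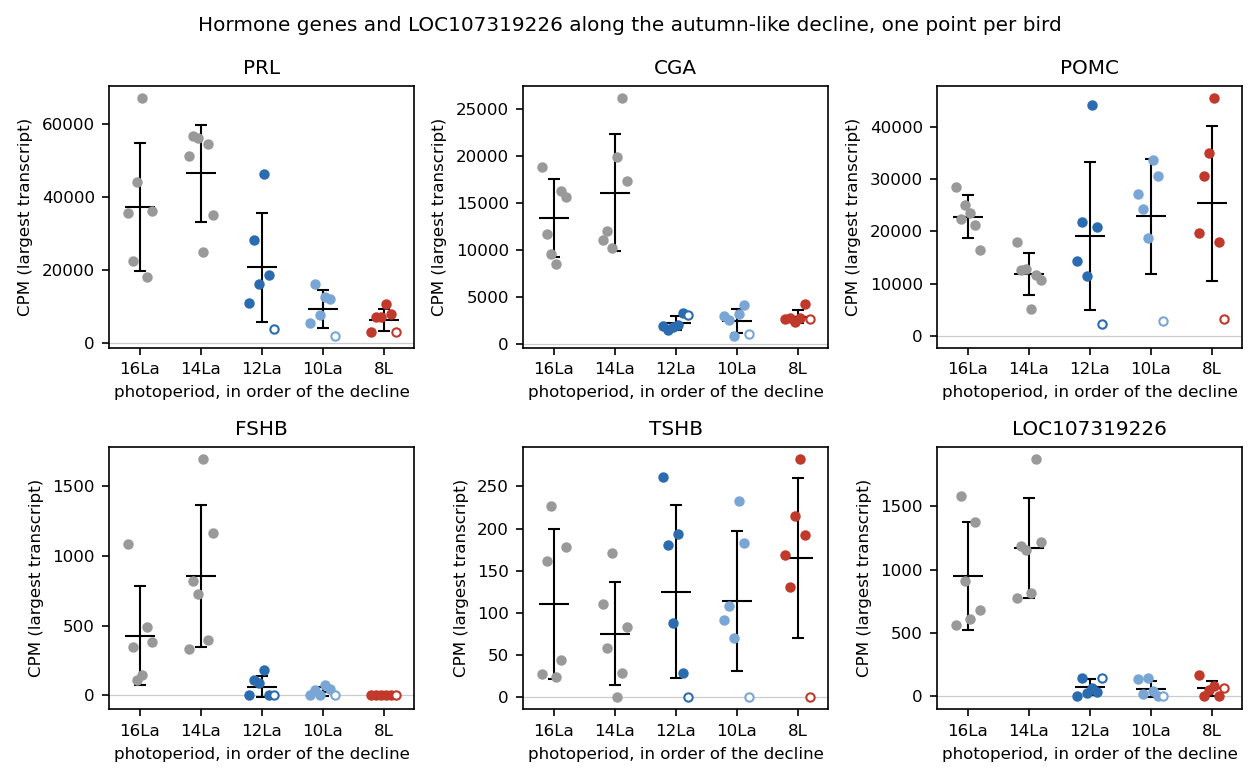
CPM of 5 hormone genes and LOC107319226 along the decline, with 1 point per bird, photoperiods in order of time and bars for mean and SD (n = 6). Open points are libraries with under 2000 genes detected. Mean PRL is lower at each of 12La, 10La and 8L than at the photoperiod before, CGA and LOC107319226 are low from 12La on, and FSHB is at 0 in all 6 birds at 8L.

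Photoperiod genes and regulators of pituitary cells were mostly near the limit of detection. DIO2, which converts thyroxine to the active triiodothyronine, had 14 counts in 6 of 6 birds at 8L and 15 counts in 4 of 6 birds at 12La. Its mean was 111.9 ± 47.9 CPM at 8L and 64.2 ± 60.7 CPM at 12La (SD, n = 6 each), with an exact permutation p of 0.165 (two-sided). EYA3, a transcriptional coactivator of the thyroid-stimulating hormone gene in the pars tuberalis of sheep and mice, had 3 counts in each group. OPN5, a deep-brain photopigment, had 0 counts at 8L and 1 at 12La, and DIO3, which degrades active thyroid hormone, had 1 count at 8L and 0 at 12La. MTNR1A was not analysed here. Among 10 tested regulators of gonadotrophs and other pituitary cells, 7 had positive and 3 had negative log2 fold changes, with a median of 0.16. GHRHR, the receptor for growth hormone releasing hormone, had the lowest p, with 121.8 to 619.2 CPM at 8L (median 393.9) and 0 to 325.9 CPM at 12La (median 211.9). Its log2 fold change was 0.79 ± 0.45 (SE; edgeR unadjusted p = 0.0815). PITX1, a transcription factor of the anterior pituitary, had 0.97 ± 0.70, and TGFBR3, the co-receptor that binds inhibin, had -1.25 ± 0.73 (log2 fold change ± SE).

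Across the transcriptome no gene passed. Of the 1460 genes tested in edgeR's quasi-likelihood test, 0 (0%) had an adjusted p under 0.05 at 8L against 12La, and the smallest adjusted p was 0.0845, shared by PRL and MBP. DESeq2 also called 0 genes. Exact permutation tests over 13922 genes with a count called 0 as well, but 6 birds against 6 allow no p below 0.00217. After adjustment over so many genes a single gene at that p could not pass, so this 0 says little. At an unadjusted p under 0.05, edgeR had 59 genes (4.04%, where chance gives 73 genes) and DESeq2 had 40. The permutation tests had 144 of their 13922 genes, a smaller share than that of edgeR. Of the 59 genes, 44 were lower at 8L (3.01%) and 15 were higher (1.03%), and 800 of all tested genes (54.8%) had a negative log2 fold change, with a median of -0.06. The median SE was 0.61, where the SE was derived from the log2 fold change and F and is approximate. On that SE the 95% interval excluded a 2-fold change in either direction for 139 genes (9.52%). A 4-fold change was excluded for 1155 (79.1%). At 10La against 12La edgeR called 0 of 1460 genes (0%) with 52 at an unadjusted p under 0.05, and at 8L against 10La it called 0 (0%) with 26. DESeq2 called 0 in both, with 34 and 19 genes at an unadjusted p under 0.05.

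**Figure D3:**
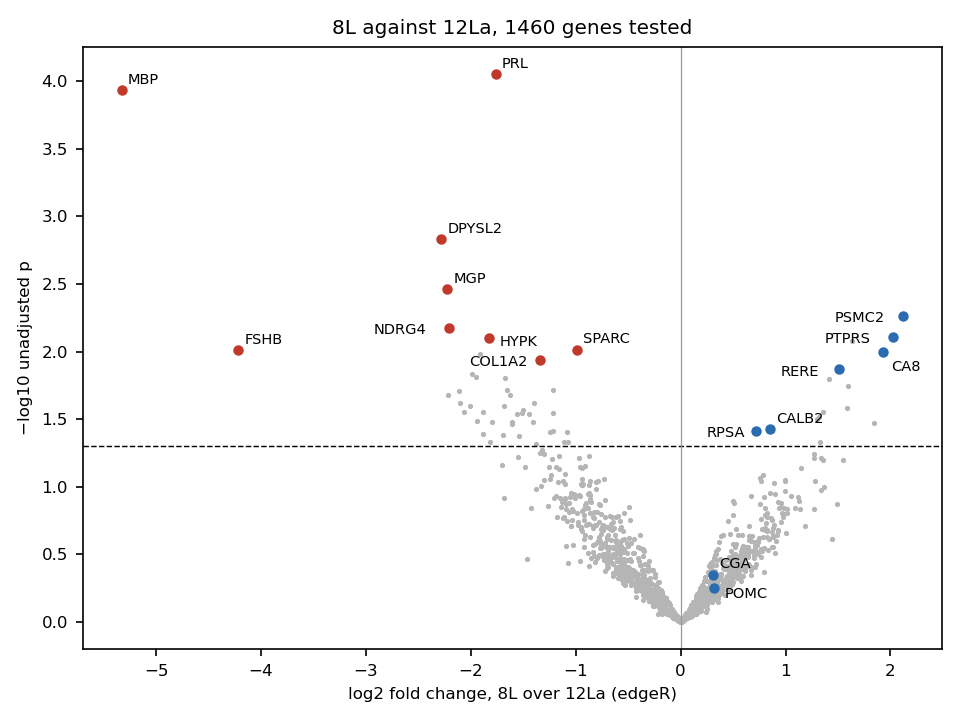
Each of 1460 tested genes by its log2 fold change, 8L over 12La, and the −log10 of its unadjusted p in edgeR. Red and blue points are named genes lower and higher at 8L, and the dashed line marks an unadjusted p of 0.05. No gene passed after adjustment. FSHB is drawn at its fitted value, which depends on the prior count since it has 0 counts at 8L.

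Most collagen and other matrix genes had lower values at 8L than at 12La, and several were already low at 10La. Their median summed level was also lower at 16La and 14La, before 12La, than at 12La. These genes are made mainly by fibroblasts and pericytes in the stroma of the gland. The list held 25 genes, of which 24 had counts and 8 passed the filter on low counts. None passed over all genes, 4 of the 8 had an unadjusted p under 0.05 and were lower (3.01% of all genes tested), 0 were higher, and the median log2 fold change was -0.93, against -0.06 for all genes tested. Mean CPM was lower at 8L than at 12La for 23 of the 24 genes, against 7126 of the 13922 genes with a count in the 12 birds (51.2%), and for all 8 tested members, against 614 of the 1460 tested genes (42.1%). The 12La mean was the highest of the 5 photoperiods of the decline for 18 of the 24 (75%), against 3409 of 13922 genes (24.5%), and for 7 of the 8 tested members (87.5%), against 255 of 1460 (17.5%). The 16 members below the filter rest on few counts, and the group total was 120730 at 8L and 208031 at 12La. The list was written with earlier results of these data known, and its members were read in the same birds. These shares thus describe the list, and they are no test of it.

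COL1A1, which encodes the alpha 1 chain of type I collagen, was below the filter and was chosen after its values were seen. It had 0 counts in all 6 birds at 8L, and 9, 2, 8, 6, 5 and 0 counts in 12La replicates 1 to 6. Apart from 12La replicate 6, the groups did not overlap. As given for PRL, 9 of 2060 genes (0.437%) were below in this way with 5 birds per group, and 8 (0.388%) above. Against the floor of 3 counts over the 8L group, and with the pooled 12La level taken as exact, COL1A1 was at least 5.80-fold lower at 8L. The bounds were 4.39 to 7.41 when a 12La bird was left out and 4.61 when an 8L bird was. The exact permutation p was 0.0152, and 1.00 adjusted over the 13922 genes with a count, where a single gene could not pass. Without the 2 libraries of low detection, where smaller groups let more genes through the filter, COL1A1 was the 1 gene called lower of 1770 tested (0.0565%; edgeR adjusted p = 0.0150), and 0 were called higher. Without all 9 libraries of the series under 2000 genes, it was 1 of 2 genes called lower of 2060 tested (0.0971%; adjusted p = 0.0188), the other being PRL. Both settings leave out 12La replicate 6, the 1 bird at 12La with 0 counts, and COL1A1 came through the filter without a count at 8L. With that bird kept, COL1A1 was also called lower when no filter was used. The same held when 8L replicate 1, 3, 4, 5 or 6, or 12La replicate 2, 4 or 5, was left out, which loosens the filter. These calls thus restate the values for which COL1A1 was chosen and are no separate support. Birds at 0 were also found at other photoperiods of the decline. COL1A1 lay between 0 and 139.5 CPM at 16La, between 0 and 62.6 CPM at 14La and between 0 and 194.4 CPM at 10La. A level of 0 was therefore not particular to birds at 8L.

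Its partner COL1A2, the alpha 2 chain, ran from 43.03 to 282 CPM at 8L (median 92.96) and from 0 to 1108 CPM at 12La (median 183.1). The ranges overlapped, and 12La replicate 1 lay far above the rest. COL1A2 had a log2 fold change of -1.34 ± 0.53 (SE; edgeR unadjusted p = 0.0115, adjusted p = 0.999), and -0.74 without 12La replicate 1. COL3A1, the type III collagen found beside type I in soft tissue, lay between 0 and 87.4 CPM at 8L (median 72.4) and between 0 and 325.9 CPM at 12La (median 130.3), and its log2 fold change was -1.45 ± 0.66 (unadjusted p = 0.0288, adjusted p = 0.999).

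MGP, matrix Gla protein, an inhibitor of calcification, had at most 1 count in any bird at 8L. Its level was 0 to 60.9 CPM at 8L (median 41.99) and 0 to 195.5 CPM at 12La (median 173.6), and 12La replicate 6 was the 1 bird at 12La that overlapped 8L. Its log2 fold change was -2.23 ± 0.75 (SE; edgeR unadjusted p = 0.00343, adjusted p = 0.999), and -2.59 ± 0.77 without the 2 libraries of low detection, when all 5 birds at 8L were below all 5 at 12La (adjusted p = 0.280). Of the 2060 genes tested without all libraries under 2000 genes, 9 (0.437%) were below in this way between these groups and 8 (0.388%) above. SPARC, a collagen-binding secreted glycoprotein, stood at 121.8 to 786.3 CPM at 8L (median 293.3) and at 0 to 1391 CPM at 12La (median 652.8). The groups overlapped, and the log2 fold change was -0.99 ± 0.38 (SE; unadjusted p = 0.0097, adjusted p = 0.999), -0.56 without 12La replicate 3, and 0.057 and 0.22 on the log2 scale of deposited values, where its sign turned.

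Of the other 4 tested members, VIM, the intermediate filament of mesenchymal cells, had a log2 fold change of -0.88 ± 0.46 (SE). TIMP2 and TIMP3, inhibitors of matrix metalloproteinases, had -0.87 ± 0.51 and -0.62 ± 0.45 (-1.48 to -0.62 and -1.41 to -0.37 when 1 bird was left out), and DCN, the proteoglycan decorin, had 0.05 ± 0.50, whose sign turned in 11 of 27 other settings. The summed level of the 24 genes ran from 670 to 3800 CPM at 8L (median 1235), from 664 to 2323 CPM at 10La (median 1590) and from 1019 to 6127 CPM at 12La (median 3259). Earlier in the decline it ran from 1117 to 2702 CPM at 16La (median 1145) and from 887 to 3663 CPM at 14La (median 1453). The median was thus highest at 12La, and those at 16La and 14La were nearer to 8L. The ranges overlapped. At 10La against 12La, SPARC had a log2 fold change of -1.49 ± 0.40, COL1A2 of -1.61 ± 0.54 and MGP of -1.84 ± 0.70 (SE), and the smallest adjusted p in edgeR was 0.318, for SPARC. At 8L against 10La these were 0.50 ± 0.43, 0.27 ± 0.62 and -0.39 ± 0.98. Both steps share birds with the main comparison.

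**Figure D4:**
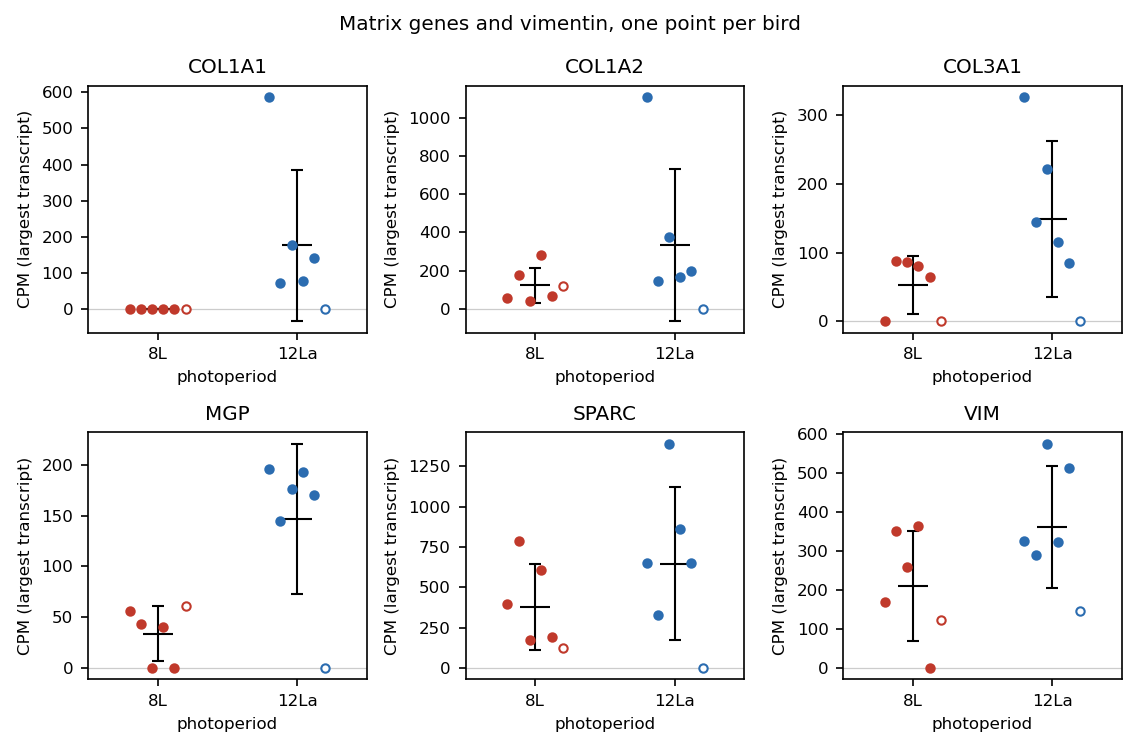
CPM of 5 matrix genes and VIM, 8L left and 12La right, with 1 point per bird and bars for mean and SD (n = 6). Open points are the 2 libraries of low detection. COL1A1 is at 0 in all 6 birds at 8L, and 12La replicate 1 is highest for COL1A1 (587 CPM) and COL1A2 (1108 CPM).

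Markers of other cell types were unevenly spread over the birds. MBP, myelin basic protein, had 2 counts at 8L, in 1 bird, and 159 at 12La, of which 153 were in replicate 5. That bird also held 9 of 9 12La counts of CRYAB, a small heat shock protein found in glia. MBP had a log2 fold change of -5.33 ± 1.26 (SE; edgeR adjusted p = 0.0845), and -0.95 without 12La replicate 5. The summed level of 12 of 16 listed markers of the neural lobe, myelin and neurons was 0 to 402.9 CPM at 8L (median 93.7) and 0 to 5827 CPM at 12La (median 369.7), and that of all 15 markers of endothelium and pericytes was 60.9 to 611.6 CPM at 8L (median 257.4) and 0 to 651.8 CPM at 12La (median 415.1). Folliculostellate and stem cell markers, 11 of 13, summed to 243.5 to 1850 CPM at 8L (median 1217) and to 291.2 to 1881 CPM at 12La (median 1525). Leukocyte markers (9 of 20, with PTPRC, LYZ, MARCO and LCP1 at 0) reached at most 281.5 CPM at 8L and 255.8 CPM at 12La, and erythroid markers (4 of 20, with RHAG at 0) at most 120.9 CPM at 8L and 170.6 CPM at 12La. The part of stromal, neural or vascular tissue in the matrix and MBP differences was not tested.

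The genes next in order of p among those lower at 8L belong to different processes, and none passed. DPYSL2, a microtubule-binding protein of growing neurites, stood at 0 to 60.9 CPM at 8L (median 41.7) and at 0 to 260.7 CPM at 12La (median 175.7). The 12La bird at 0 was the library of low detection, without which the groups did not overlap. With 5 birds per group, 9 of 2060 genes (0.437%) were below in this way and 8 (0.388%) above. Its log2 fold change was -2.28 ± 0.71 (SE; edgeR unadjusted p = 0.00147, adjusted p = 0.714). HYPK, a partner of the N-terminal acetyltransferase NatA, had 0 to 129.1 CPM at 8L (median 20.1) and 65.2 to 180.2 CPM at 12La (median 145.2). Only 8L replicate 3 lay above the lowest bird at 12La, and the log2 fold change was -1.83 ± 0.68 (unadjusted p = 0.00794, adjusted p = 0.999). NDRG4, a cytoplasmic protein known from brain and heart, had a log2 fold change of -2.21 ± 0.81, EGLN1, the prolyl hydroxylase that marks hypoxia-inducible factors for decay, had -1.92 ± 0.74, SDHAF4, an assembly factor of succinate dehydrogenase, had -1.99 ± 0.81, and RBX1, the RING subunit of cullin ubiquitin ligases, had -1.95 ± 0.80 (SE; unadjusted p between 0.00671 and 0.0154, adjusted p = 0.999 for each).

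Among genes higher at 8L, PSMC2 was the 1 tested gene (0.0685% of 1460) for which all 6 birds at 8L lay above all 6 at 12La. It encodes an ATPase subunit of the proteasome's regulatory particle. Its level was 86.05 to 161.2 CPM at 8L (median 125.0) and 0 to 44.2 CPM at 12La (median 12.9), from 15 counts at 8L and 5 at 12La. Single birds had 2 to 4 counts at 8L and 0 to 2 at 12La, so the counts themselves met and the separation holds in CPM only. In 12La replicate 6, with 0 counts, 1 count would be 145.6 CPM. The log2 fold change was 2.12 ± 0.76 (SE; edgeR unadjusted p = 0.00546, adjusted p = 0.999), and the exact permutation p of 0.00217 is the smallest that 6 birds against 6 can give. That p follows from the full separation by which PSMC2 was picked, so it is no further support. Such an order is 1 of 924 splits, and 1460 genes were looked at. At 10La PSMC2 had 2 counts in 2 birds, with a log2 fold change of 2.78 ± 0.87 at 8L against 10La (SE; edgeR unadjusted p = 0.00168, adjusted p = 1.00). No tested gene (0 of 1460, 0%) had all 6 birds at 8L below all 6 at 12La. Of the 13 proteasome genes tested, 5 had positive and 8 had negative log2 fold changes, with a median of -0.13, and PSMA2 and PSMA3, both of the core ring, had 1.14 ± 0.78 and -0.63 ± 0.63 (SE; 0.36 to 1.83 and -1.11 to -0.30 when 1 bird was left out).

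CA8, a carbonic anhydrase relative without catalytic activity, was seen in 6 of 6 birds at 8L and in 1 of 6 at 12La. Its level was 43.03 to 201.4 CPM at 8L (median 114.9), against 0 in 5 birds and 77.2 CPM in replicate 4 at 12La. The log2 fold change was 1.93 ± 0.74 (SE; edgeR unadjusted p = 0.0101, adjusted p = 0.999). CA8 passed when 12La replicate 4 was left out, at a fitted log2 fold change of 4.40 (edgeR adjusted p = 0.0357). That bird held all the 12La counts of CA8, so the pass came from leaving out the 1 bird that went the other way. With 0 counts in the remaining 12La birds, CA8 was at least 5.04-fold higher at 8L against their floor of 3 counts. This bound holds for those birds only and not for all 6. PTPRS, a receptor tyrosine phosphatase, had a log2 fold change of 2.02 ± 0.75, and RERE, a transcriptional corepressor, had 1.51 ± 0.61. Lower in order of p were DHRS7, a short-chain dehydrogenase (1.59 ± 0.67), WDR61, a subunit of the PAF1 and SKI complexes (1.41 ± 0.58), LIN52, of the cell cycle repressor complex DREAM (1.58 ± 0.71), VPS29, of the retromer (1.32 ± 0.61), CCT4, of the cytosolic chaperonin (1.30 ± 0.60), and PAG1, a membrane adaptor of Src family kinases (1.84 ± 0.86; log2 fold change ± SE). Their adjusted p in edgeR was 0.999 in each case.

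CALB2 encodes calretinin, a calcium-binding protein. It ran from 60.9 to 844.4 CPM at 8L (median 518.9) and from 0 to 411.8 CPM at 12La (median 196.8). The groups overlapped in part, with 3 birds at 8L above every bird at 12La, and the log2 fold change was 0.85 ± 0.41 (SE; edgeR unadjusted p = 0.0376, adjusted p = 0.999). At 10La it had already a range of 147.5 to 1050 CPM, with a log2 fold change of 1.24 ± 0.39 at 10La against 12La and of -0.39 ± 0.38 at 8L against 10La. NELL2, a secreted neural glycoprotein, lay between 0 and 387.2 CPM at 8L (median 124.3) and between 0 and 687.3 CPM at 12La (median 284.4). Its log2 fold change was -1.22 ± 0.58 (unadjusted p = 0.0385, adjusted p = 0.999), and the ranges overlapped. NTS, the neurotensin precursor, had 0 counts at 8L and 2 at 12La. GNAS, the stimulatory G protein alpha subunit, had -0.96 ± 0.61 (log2 fold change ± SE). These belong to a list of calcium-binding and neuropeptide genes with 6 tested members, 2 positive and 4 negative.

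The machinery of protein synthesis and secretion showed small and mixed differences, and no member of any list passed. Of 75 tested cytosolic ribosomal protein genes, 52 had positive and 23 negative log2 fold changes, with a median of 0.15 and a range of -0.39 to 0.76. RPSA, of the small subunit, was the 1 member with an unadjusted p under 0.05, at 946.6 to 2374 CPM at 8L (median 1350) and at 291.2 to 1261 CPM at 12La (median 720.2), with a log2 fold change of 0.72 ± 0.35 (SE; edgeR unadjusted p = 0.0387, adjusted p = 0.999). RPS3A and RPS19 had 0.76 ± 0.44 and 0.67 ± 0.43. Of 27 translation factors, 17 were positive and 10 negative (median 0.08), with EIF3I at 0.93 ± 0.61, EIF3K at 0.80 ± 0.51 and EIF2S2 at -0.94 ± 0.75. The summed ribosomal protein level was 64667 to 153876 CPM at 8L (median 76848) and 51650 to 84868 CPM at 12La (median 76265).

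For 36 genes of translocation and folding in the endoplasmic reticulum, 13 log2 fold changes were positive and 23 negative, with a median of -0.19. Here 2 of the 36 members had an unadjusted p under 0.05, both lower, as did 44 of all 1460 genes tested (3.01%). TMED2, a cargo receptor of early secretory vesicles, had 0 to 218.4 CPM at 8L (median 107.2) and 154.6 to 325.9 CPM at 12La (median 254.5), with a log2 fold change of -1.07 ± 0.54, and DNAJC3, a co-chaperone, had -1.11 ± 0.56 (SE; edgeR unadjusted p = 0.0467 for each, adjusted p = 0.999). HYOU1, another chaperone, had -1.05 ± 0.67, and -2.32 without 8L replicate 3. Of 7 secretory granule genes 2 were positive and 5 negative, with the granins CHGB at -0.80 ± 0.49, SCG2 at -0.57 ± 0.44 and SCG3 at -0.41 ± 0.38. Exocytosis genes were split 4 to 4, with VAMP3, a vesicle SNARE, at 1.09 ± 0.74, the GTPase RAB2A at -0.94 ± 0.57 and CADPS, a priming factor, at -0.77 ± 0.78 (log2 fold change ± SE).

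Of 47 oxidative phosphorylation genes, 23 were positive and 24 negative (median -0.01), and the complex I subunits NDUFB3, NDUFA1 and NDUFC1 had -1.32 ± 0.68, -0.68 ± 0.49 and -0.75 ± 0.58. The 5 tested clock genes had a median of 0.07, with TEF, a clock-controlled transcription factor, at -1.11 ± 0.72 (-2.14 without 8L replicate 2) and HLF, its relative in the list of thyroid hormone and photoperiod genes, at -0.62 ± 0.59. FKBP5, a co-chaperone induced by glucocorticoids, had -1.68 ± 1.08 in a list of 5 tested receptor genes and targets with a median of -0.10. Lists of immediate early genes (3 tested) and of heat shock and stress genes (7 tested) had medians of 0.15 and 0.12. Of 2 tested lipid synthesis genes, FASN, fatty acid synthase, had -2.10 ± 0.92 (log2 fold change ± SE; edgeR unadjusted p = 0.0240), from 2 counts at 8L and 17 at 12La. Cell division genes had 2 tested members, 1 in each direction. Among folliculostellate markers CD24, a surface glycoprotein, had -0.49 ± 0.33.

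**Figure D5:**
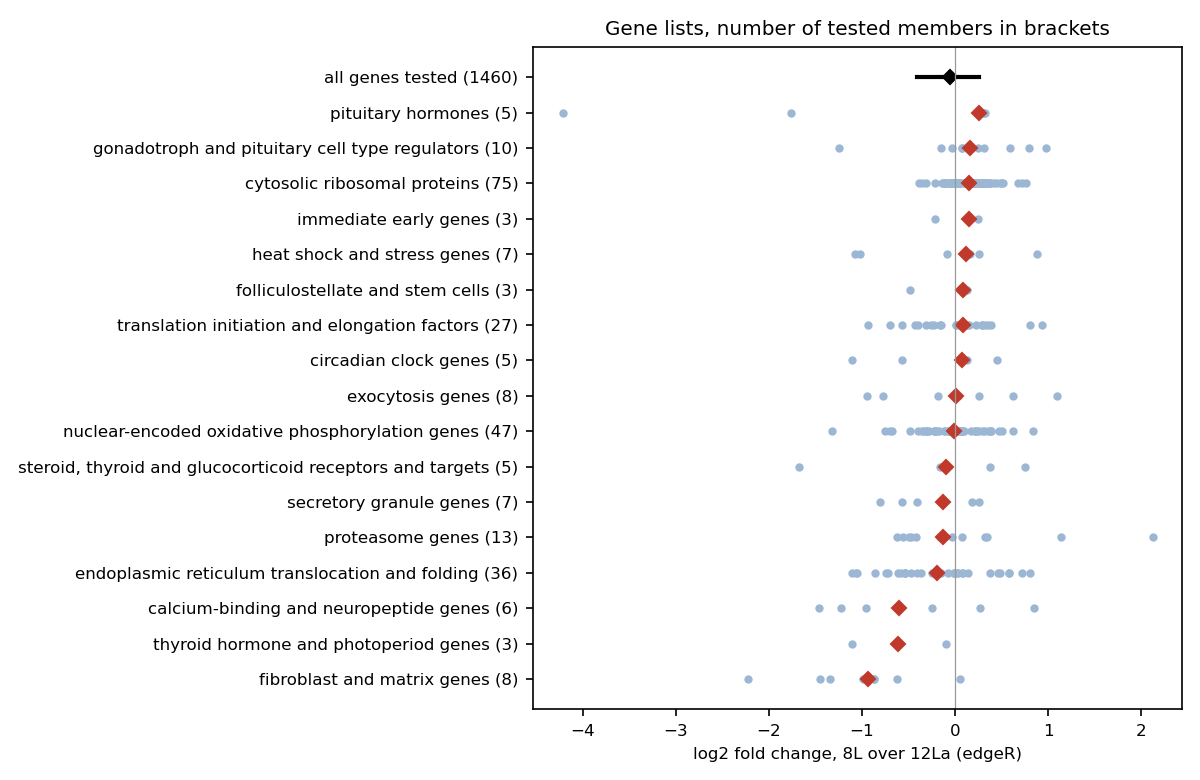
Log2 fold changes in edgeR, 8L over 12La, of the tested members of each gene list with 3 or more of them (blue points, number in brackets), with the list median as a red diamond. Black marks the median and quartiles of all 1460 genes tested. Of the lists drawn, the matrix list has the lowest median (-0.93), and 7 of its 8 members lie left of 0.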

How the data were processed

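Polyadenylated RNA of each pituitary was sequenced as barcoded direct cDNA on Nanopore flow cells, per the labels' protocols. The submitters' processing notes name edgeR 3.24.3, Salmon 0.14.2 and minimap2 2.17. A genome build is not given in the sources used here, so no coordinates are printed. The authors deposited estimated counts for 40282 transcripts in 54 birds, and a second table of normalised signal per gene, used as log2 values in 2 alternatives. Columns were matched by bird number. Where a gene had 2 transcripts, 53% of paired values were equal within 0.01, and a read may thus be entered more than once. The largest transcript count per gene and bird was therefore used, rounded, for 16448 genes.

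edgeR 4.0.16 in R 4.3.3 was fitted to all 54 birds (robust fit, minimum count of 3 in filterByExpr, TMM scaling, quasi-likelihood F-test, 1 mean per photoperiod, no covariate, 45 residual degrees of freedom), with p values adjusted by Benjamini-Hochberg over 1460 genes at a threshold of 0.05. The script was tested on simulated data. Exact permutation tests enumerated all splits of 6 against 6 birds. Genes too low for the filter were adjusted over all 13922 genes with a count and not over their list alone. limma 3.58.1 and DESeq2 1.42.0 served as alternatives. Floors of 3 counts and intervals of counts reflect counting error alone. Replicate numbers follow the order of deposition. Strand use in counting is not given, and CRYM and LOC107306902 had equal counts in every bird and cannot be separated.

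The comparison, gene lists and markers were chosen with earlier results of these data known. Named genes were the measured hormone genes, the photoperiod genes DIO2, DIO3, OPN5, EYA3 and MTNR1A, the 12 genes with a symbol and the lowest p in each direction, up to 3 members of each list by p, NELL2, NTS and CALB2, and the genes with the most counts. LOC107319226, COL1A1, COL3A1, VIM, TIMP2, TIMP3, DCN, CRYAB, CRYM, LOC107306902, BGLAP and FASN fall outside that rule and were chosen after their values were seen.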

Additional observations from a re-analysis of the deposited data

Results flagged for a closer look

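Dixon's 95% critical value is passed in about 1 in 20 sets of normally distributed values, a rate that need not hold for CPM from few counts. In 14 of 129 sets of 6 birds looked at, the highest or lowest bird lay apart from the other 5 by more of the whole range than that value. At 8L these were CGA in replicate 5 (4235 CPM), TIMP3 in replicate 2 (873.7 CPM), TEF in replicate 2 (174.7 CPM), HYOU1 in replicate 3 (215.1 CPM), SCG2 in replicate 5 (834.2 CPM) and SDHAF4 in replicate 5 (128.3 CPM), all high. At 12La COL1A1 and COL1A2 were both high in replicate 1 (586.6 and 1108 CPM), MBP in replicate 5 (4349 CPM) and PSMA2 in replicate 2 (108.5 CPM), while HYPK was low in replicate 1 (65.2 CPM) and MGP was 0 CPM in replicate 6. The share of counts in the 2 genes with the most counts was high in replicate 6 of both groups, at 62.1% (8L) and 64.5% (12La).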

How the results depend on the processing

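PRL was lower at 8L under all 29 other settings, and passed without a filter (adjusted p = 0.0298), with bird number rank as a term (3.47e-05), without all 9 libraries under 2000 genes (0.00815; 0.0792 without only the 2 of these groups, an alternative chosen after seeing the data), without the highest-numbered birds (0.0182) and without 8L replicate 4 (0.0462) or 12La replicate 5 (0.0185) or 6 (0.0122). 8L replicate 4 had the highest PRL at 8L (10636 CPM), and 12La replicate 6 the lowest at 12La (3932 CPM). The settings without libraries under 2000 genes and without the highest-numbered birds also leave out 12La replicate 6. All of these passes thus left out a bird that went the other way, unlike those without a filter, with the bird rank or without 12La replicate 5. Genes lower at 8L than at 12La numbered 3 without a filter (COL1A1 and PRL among them), 1 with limma on deposited values plus 1 (BGLAP), 1 with the bird rank (PRL), 1 without only the 2 libraries of low detection in these groups (COL1A1), and 2 without libraries under 2000 genes or without the highest-numbered birds (COL1A1 and PRL both times), and members of the gene lists called numbered 3, 1, 1, 2 and 2 in the same settings other than limma. Leaving out 1 bird at a time gave 0 to 5 genes lower (5 without 12La replicate 5, 4 without replicate 4), 0 to 1 higher (CA8, without 12La replicate 4) and 0 to 3 list members, with more genes tested since groups of 5 loosen the filter. At 10La against 12La 2 genes were lower without a filter (CRYM and LOC107306902) and 0 to 3 leaving out 1 bird, and at 8L against 10La 0 in all settings run. CRYM and LOC107306902 had equal counts in every bird, so they are 1 signal entered as 2 genes. That holds here and in the 5 and 4 genes above. Of the 47 CRYM counts at 12La, 35 were in replicate 3. MBP passed without 12La replicate 2, 4 or 6 (highest edgeR adjusted p = 0.0404). Those birds held 0, 2 and 0 of its counts, while replicate 5, with 153 of the 159 at 12La, stayed in. The passes thus rest on that 1 bird.

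Signs turned for DCN with summed counts (-0.069), no filter (-0.13), RLE scaling (-0.038), limma (-0.45 with either pseudocount), the log2 total as a term (-0.011) and CPM means (-0.067), and leaving out 1 bird gave -0.26 to 0.29. They turned for SPARC with limma (0.057 and 0.22), for LOC107319226 with the log2 total as a term (0.42; -0.54 to 0.33 leaving out 1 bird) and for TSHB without 12La replicate 5 (-0.0029, and up to 0.49 without another bird). The cause was not tested. Of 62 named genes, 30 had a log2 fold change that moved by over 1.5 times when 1 bird was left out. The difference in library totals was -20111 without 12La replicate 6 (exact permutation p = 0.0281) and at the other end -5943 without 12La replicate 4, and the share of the 2 top genes at 8L minus 12La was between -9.18 percentage points (without 8L replicate 6) and 2.66 (without 12La replicate 6, where it turned). No paired analysis was possible because the labels give no replicate numbers shared between photoperiods. With 1 count worth 40.3 to 64.2 CPM at 8L and 12.9 to 145.6 CPM at 12La, levels below about this size rest on single reads.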
